A study of Mus musculus with 6 samples.

Results

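Mouse embryonic stem (ES) cells with the NcGFP knock-in on both copies of a gene (NcGFP ki/ki, here ki/ki) were compared with wild type ES cells of the line W4. Each genotype had 2 Affymetrix arrays, replicate 1 and replicate 2, taken from independent experiments, so 4 of the 6 arrays of the study enter the comparison. The other 2 arrays were of heterozygous cells (NcGFP ki/+). They enter the fit for its estimate of spread, and their levels are given beside some genes and gene lists. All 3 genotypes were grown in serum with the cytokine LIF on a diluted plate labelled EMFI, read here as mouse embryonic fibroblast feeders. The labels do not say how many clones the ki/ki cells came from or whether the feeders were removed, and they leave the name NcGFP unexplained. Knowledge of the study, and not the labels, gives it as N-cadherin fused to green fluorescent protein and inserted into Cdh1, which encodes E-cadherin.

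E-cadherin and N-cadherin are adhesion proteins that bind the same kind of molecule on the neighbouring cell and hold the cell's actin network through catenins. ES cells, like the early embryo and other epithelia, use E-cadherin. N-cadherin, encoded by Cdh2, is the form of neural and many mesodermal cells, and the exchange of the former for the latter accompanies the loss of epithelial shape in development. ES cells held in LIF move between a naive state, close to the preimplantation embryo, and a primed state, close to the later epiblast.

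Of 45037 probe sets that are not array controls, 37950 exceeded a log2 intensity of 4 in at least 2 of the 6 arrays and were compared. A further 848 exceeded it in 1 array and were left out, and 558 of those kept exceeded it in exactly 2. Each gene was then read from its probe set of highest mean level, which gave 16687 genes. A gene is called above when both ki/ki arrays exceeded both wild type arrays, below when both were lower, and split when wild type lay between them. The gap is the log2 distance between the nearest ki/ki and wild type arrays. Levels are log2 intensities and differences are log2 differences, with 2 arrays against 2 throughout. Pairs of levels are given as replicate 1, then replicate 2.

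Some features of the arrays bear on all that follows. The ki/ki arrays differed from each other by more than 2-fold in 1306 genes, and the wild type arrays in 0. Root mean square standard deviations within the groups were 0.391 for ki/ki and 0.122 for wild type. Feeder fibroblast markers, 29 genes such as collagens, had median differences from the wild type mean of -0.18 and 1.18 in the ki/ki arrays, and their summed intensity was 28938 and 71284 against 29878 and 34701 in wild type. The collagen gene Col1a2 read 10.94 and 12.83 in ki/ki and 10.72 and 11.07 in wild type, so feeder transcripts were plain on all 4 arrays. Of the 29, 5 were above, 1 was below and 17 were split. The array's controls for 18S ribosomal RNA stood at a mean of 11.36 and 11.12 in ki/ki, 11.57 and 11.54 in ki/+, and 7.22 and 7.12 in wild type. All knock-in arrays, ki/ki and ki/+, stood far above wild type in these controls. This difference coincides with genotype, so its part in the results cannot be told apart from that of genotype and was not tested. The Y-linked gene Eif2s3y was read at 5.33 and 9.13 in ki/ki against 5.16 and 5.33 in wild type, and Uty at 4.25 and 7.10 against 4.36 and 4.32. The ki/ki arrays differed from each other in both genes, and replicate 1 lay near wild type. The ES cell genes Pou5f1 (12.60 to 13.08 over the 6 arrays), Sox2 (11.98 to 12.37) and Nanog (11.92 to 13.08) were high on every array. Of 8 muscle markers, 7 stayed under log2 7 in all 6 arrays, as did 5 of 7 endothelial and 4 of 8 blood markers. With bulk RNA, fewer cells of a type and less RNA per cell cannot be told apart.

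No probe set passed the test. limma called 0 of 37950 (0%) at an adjusted p of 0.05, with a smallest adjusted p of 0.130, while 3394 had an unadjusted p under 0.05. With 2 arrays against 2, an exact permutation test of a single gene could not go below 0.333. Of the genes, 2887 (17.3%) were above, 3532 (21.2%) were below, 5904 (35.4%) were split and 4364 (26.2%) had a ki/ki array within the wild type range. These shares are the background for every count given below that rests on both ki/ki arrays. A gap of at least 1 was found for 19 genes above (0.114%) and 43 below (0.258%). Leaving out an array of ki/ki left a lone array assumed to vary like the other genotypes. The fit then called 1796 probe sets without replicate 1 (1047 higher, 749 lower) and 1046 without replicate 2 (431 higher, 615 lower).

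**Figure D1:**
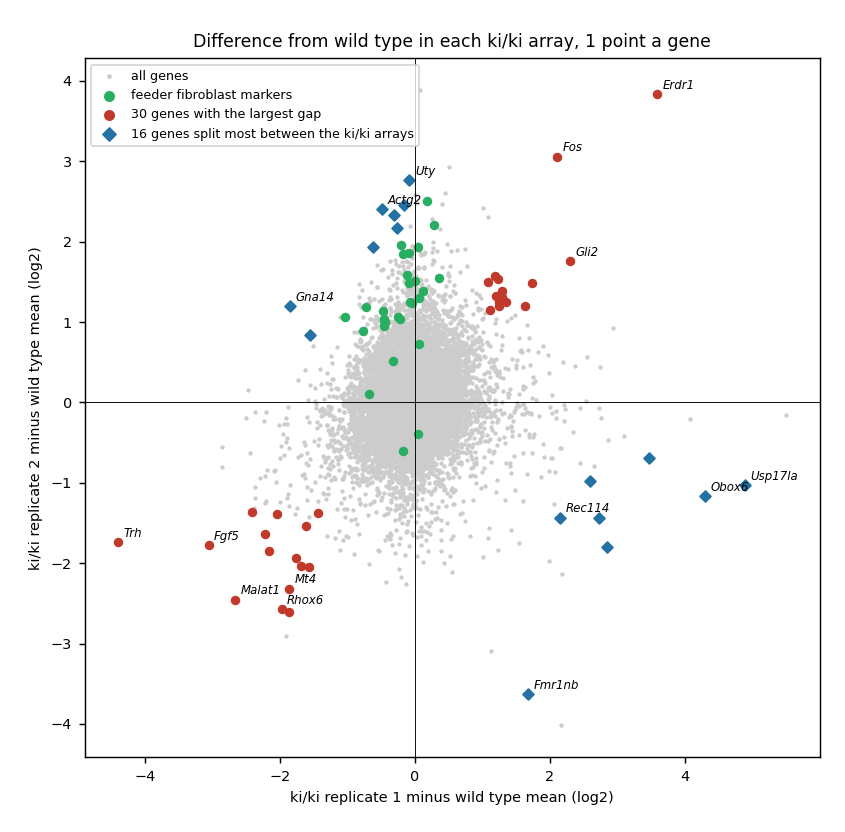
Each point is a gene of the 16687 measured, placed by its log2 difference from the wild type mean in ki/ki replicate 1 (horizontal) and ki/ki replicate 2 (vertical). Red points are the 30 genes with the widest gaps, blue diamonds the 16 genes most split between the ki/ki arrays and green points the feeder markers, most of which lie above 0 in replicate 2 only.

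The knock-in itself was looked for first. Cdh1 read 9.77 and 11.09 in ki/ki and 12.17 and 12.13 in wild type (mean 10.43 ± 0.93 against 12.15 ± 0.03, SD, n = 2 each). The ki/+ arrays read 11.66 and 10.62. Both ki/ki arrays were below both wild type arrays, with a gap of 1.04, a difference of -1.71 (SE 0.48) and a limma adjusted p of 0.368. Cdh2 read 7.88 and 9.11 against 8.27 and 8.46, a difference of 0.13 (SE 0.49, limma adjusted p = 0.966), so wild type lay between the ki/ki arrays. Its second probe set gave the same order, with 7.32 and 9.13 against 8.12 and 8.16. Whether these probe sets lie in a part of the transcript that the knock-in carries is not given in the sources used here. For Cdh2 they therefore check nothing. Among the 17 measured cadherins, catenins and their partners, 3 genes were above, 3 were below and 8 were split. The catenins that link cadherin to actin gave differences of 0.53 for Ctnna1 and 0.29 for Ctnnb1, and plakoglobin, Jup, gave -0.55.

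The 15 genes with the widest gap above, of those with a settled gene name, are described next. Their gaps ran from 1.04 to 3.38, and the next gene outside was Tet2 at 1.02. Their differences ran from 1.13 to 3.71 with limma adjusted p from 0.130 to 0.318, and their ki/ki arrays lay 0.004 to 0.95 apart. The widest gap belonged to Erdr1, a gene that RefSeq places on chromosome X, named for erythroid differentiation. It read 12.66 and 12.90 in ki/ki against 8.86 and 9.27 in wild type (difference 3.71, SE 0.31, limma adjusted p = 0.130). Its probe set name ends in x_at, the maker's mark for probes that can bind other transcripts, and its other probe set differed by 0.38.

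Transcription factors that respond to signals or stress formed part of the group. Fos, an immediate early factor that pairs with Jun proteins, read 10.61 and 11.56 in ki/ki and 8.61 and 8.41 in wild type (difference 2.58, SE 0.34, limma adjusted p = 0.166). Atf3, a stress-induced factor, read 7.94 and 8.05 against 6.68 and 6.63 (difference 1.34, SE 0.15, limma adjusted p = 0.166). The spread of Atf3 within either genotype was far smaller than the gap between them, though the gene was chosen for a wide gap. Gli2, a transcription factor at the end of the Hedgehog pathway, read 9.55 and 9.01 against 7.17 and 7.34 (difference 2.03, SE 0.21, limma adjusted p = 0.166), and its second probe set differed by 1.58. Zfp148, a zinc finger factor, read 8.47 and 8.60 against 7.26 and 7.30, and all 5 of its other probe sets were above, by 0.44 to 1.22.

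Amino acid and intermediary metabolism gave others. Chac1 encodes an enzyme that degrades glutathione and is a known target of the stress factor ATF4. It read 8.94 and 8.69 in ki/ki and 7.31 and 7.11 in wild type (difference 1.61, SE 0.37, limma adjusted p = 0.299). Pck2, the mitochondrial form of phosphoenolpyruvate carboxykinase, read 9.39 and 8.97 against 7.93 and 7.61, a difference of 1.41 with 1.06 on its other probe set. Slc7a1, a carrier of arginine and lysine, read 10.39 and 10.29 against 8.97 and 9.10, while its other probe sets ranged from -0.17 to 1.18. Gpd2, the mitochondrial glycerol-3-phosphate dehydrogenase, read 10.57 and 10.62 against 9.46 and 9.47, but its 3 other probe sets differed by -0.03 to 0.10. The groups did not overlap for these 4 genes, as the rule for naming them requires. For Gpd2 this was true of the probe set shown and not of the gene as a whole. For Slc7a1 it held for only 1 of its 2 other probe sets.

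The remaining genes of this group were Cobl (an actin nucleator), Lama1 (a laminin chain of basement membranes), Sbno1, Nipbl (the loader of cohesin on chromosomes), Ccser2 and Srrm2 (a splicing factor). Lama1 read 6.55 and 6.86 against 5.23 and 5.42 (difference 1.38, SE 0.29, limma adjusted p = 0.265). Nipbl read 8.70 and 9.10 against 7.41 and 7.64, with its 4 other probe sets between -0.16 and 0.55. Srrm2 read 11.03 and 10.97 against 9.64 and 9.92, yet its 2 other probe sets differed by -0.28 and -0.17. In all, 11 of the 15 genes have other probe sets, and for 7 of these at least 1 other lay on the same side. Cobl, Ccser2 and Sbno1 differed by 1.30, 1.29 and 1.25. The other probe set of Cobl differed by 0.17, and the 2 others of Ccser2 by 0.05 and 0.18. The 4 others of Sbno1 ran from -0.17 to 0.63, with 1 of them above.

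**Figure D2:**
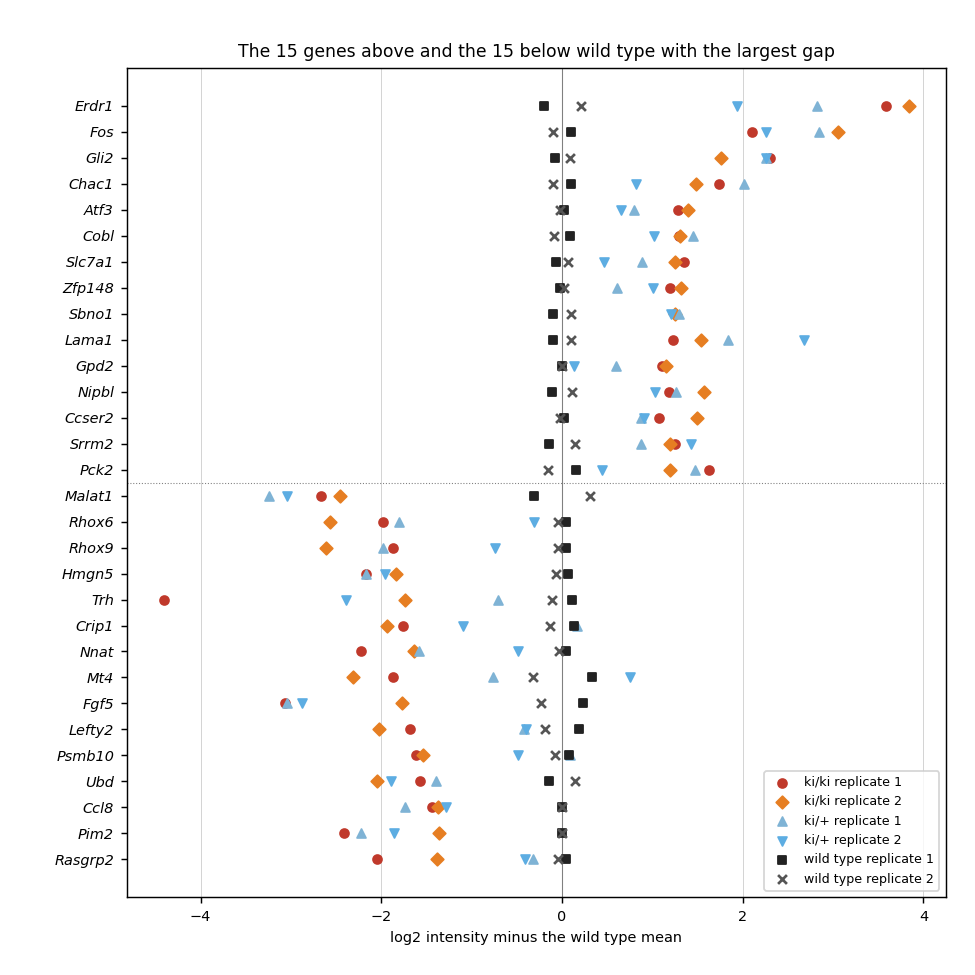
Log2 intensity minus the wild type mean (horizontal) of the 15 genes with the widest gap above and the 15 with the widest gap below, with 1 symbol for each of the 6 arrays. The ki/ki points are up to 2.67 apart among the lower genes (Trh) and within 0.95 of each other among the higher ones (Fos).

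The 15 genes with the widest gap below had gaps of 1.34 to 2.14, and the next gene outside was Gstm1 at 1.33. Differences ran from -3.07 to -1.41 with limma adjusted p from 0.130 to 0.375. Malat1, an abundant nuclear noncoding RNA, read 8.22 and 8.43 in ki/ki and 10.57 and 11.20 in wild type (difference -2.56, SE 0.23, limma adjusted p = 0.130). Its 6 other probe sets ranged from -2.71 to 0.75, of which 2 were below and 1 above, so the gene has no single direction on this array. Hmgn5, a nucleosome-binding protein, read 8.95 and 9.27 against 11.18 and 11.04 (difference -2.0, SE 0.18, limma adjusted p = 0.130).

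Signals and markers of early lineages were among the lower genes. Fgf5, a growth factor of the primed epiblast, read 4.56 and 5.85 in ki/ki and 7.86 and 7.39 in wild type (difference -2.42, SE 0.40, limma adjusted p = 0.200), and its second probe set differed by -1.35. In ki/+ it read 4.58 and 4.75, near the filter of 4, as was ki/ki replicate 1. Lefty2, a secreted inhibitor of Nodal, read 7.19 and 6.84 against 9.06 and 8.68 (difference -1.86, SE 0.20, limma adjusted p = 0.166), and ki/+ read 8.45 and 8.47. Trh, which encodes thyrotropin-releasing hormone, had the largest difference of the group. It read 7.27 and 9.93 against 11.78 and 11.56 (difference -3.07, SE 0.88, limma adjusted p = 0.375), and its ki/ki arrays lay 2.67 apart.

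Rhox6 and Rhox9, neighbouring X-linked homeobox genes known from placenta and germ line, had like differences. Rhox6 read 6.90 and 6.30 in ki/ki against 8.92 and 8.83 in wild type (difference -2.28, SE 0.46, limma adjusted p = 0.261). Rhox9 read 6.68 and 5.94 against 8.59 and 8.51 (difference -2.24, SE 0.42, limma adjusted p = 0.236). They are close relatives, and whether their probes bind each other's transcripts was not tested. Nnat, an imprinted gene expressed from the father's copy, read 5.93 and 6.51 against 8.19 and 8.12 (difference -1.94, SE 0.37, limma adjusted p = 0.237).

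The remaining lower genes have varied roles. Psmb10, a subunit of the immunoproteasome, read 7.04 and 7.11 in ki/ki against 8.73 and 8.58 in wild type (difference -1.57, SE 0.22, limma adjusted p = 0.166). Ubd, a ubiquitin-like protein induced by interferon, read 6.04 and 5.56 against 7.47 and 7.76, and the chemokine Ccl8 read 5.96 and 6.03 against 7.40 and 7.40. Mt4, a metallothionein, read 5.5 and 5.06 against 7.70 and 7.04. The ki/ki arrays were closest together for Ccl8 and Psmb10 among these 4. Pim2, a growth-promoting kinase gene on the X chromosome, read 8.06 and 9.11 against 10.48 and 10.47. Crip1, a small LIM protein, read 8.26 and 8.09 against 10.15 and 9.89. Rasgrp2, an activator of the small GTPase Rap1, read 8.10 and 8.76 against 10.20 and 10.10, and all 3 of its other probe sets were below, by -1.77 to -0.23. Of the 15 genes, 4 lie on chromosome X and 2 on chromosome 8, which hold 543 and 873 of the 16687 measured genes.

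Gene lists of pathways and cell types were then read against the background shares. No list held a probe set that passed the test, so counts above and below are descriptions of the 4 arrays. The highest share above was in the integrated stress response, and the highest share below in primed epiblast markers. Medians for all genes were -0.02 in either ki/ki array.

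**Figure D3:**
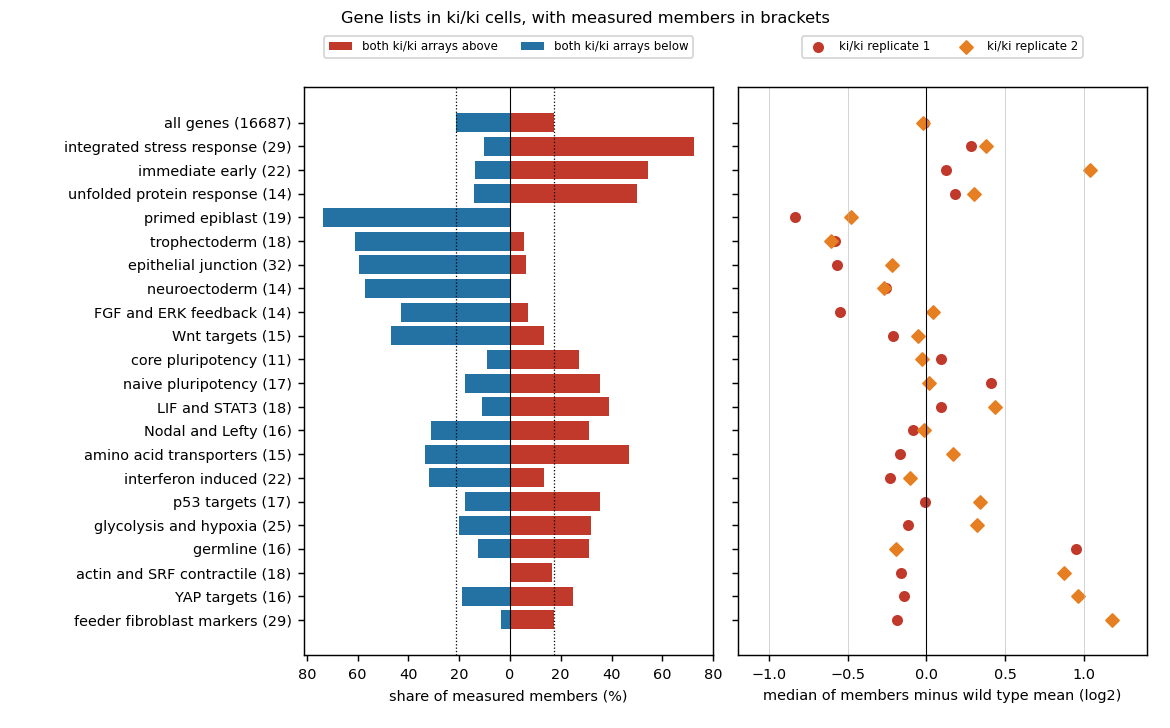
Left, share of measured members above (red) and below (blue) in 21 gene lists, with dotted lines at the shares over all 16687 genes (17.3% and 21.2%). Right, the median log2 difference from wild type in ki/ki replicate 1 and replicate 2. The integrated stress response has the highest share above (72.4%) and primed epiblast markers the highest below (73.7%), and feeder and actin lists have medians of -0.18 and -0.16 in replicate 1 and 1.18 and 0.87 in replicate 2.

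The integrated stress response slows protein synthesis when amino acids, heme or folding capacity run short and lets the factor ATF4 be made, which raises amino acid synthesis, uptake and tRNA charging. Of 29 measured members, 21 were above, 3 below and 3 split (72.4% above), with medians of 0.29 and 0.38. In replicate 1 alone 22 exceeded both wild type arrays, and in replicate 2 alone 24, against 39% and 41.6% of all genes. The shares of all genes lower than both wild type arrays were 44.3% in replicate 1 and 45.1% in replicate 2. The enzymes were among the clearest. Cystathionine gamma-lyase, Cth, which makes cysteine, read 11.56 and 11.09 in ki/ki and 10.33 and 10.21 in wild type (difference 1.05, SE 0.21, limma adjusted p = 0.261). Asparagine synthetase, Asns, read 12.25 and 11.94 against 11.23 and 11.15 (difference 0.91, SE 0.16, limma adjusted p = 0.221), and its second probe set differed by 0.88. Psph, the last enzyme of serine synthesis, differed by 1.00, and the enzymes before it gave 0.64 for Psat1 and 0.55 for Phgdh. The pseudokinase gene Trib3 read 8.74 and 8.61 against 7.94 and 7.75, and the lipoprotein receptor gene Vldlr read 6.02 and 6.58 against 5.09 and 5.27. Nupr1 read 9.71 and 8.08 against 7.73 and 7.71, which makes its difference of 1.18 mainly that of replicate 1 (SE 0.51, limma adjusted p = 0.570). Atf4 itself read 11.82 and 11.83 against 11.67 and 11.66, a difference of 0.16, but its 2 other probe sets differed by -0.24 and -0.17. The members below were Ddit4 (-0.60), Slc7a5 (-0.45) and Sesn2 (-0.07). The unfolded protein response, which shares a branch with this pathway, had 7 of 14 above and 2 below. The carriers of amino acids had 7 of 15 above and 5 below.

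ATF4 and its partners bind a composite element whose core is searched for here as TGATGNAA, or TTNCATCA on the opposite strand. The motif was chosen with the values above in view. The stress response list holds genes of the ATF4 pathway. A higher share of matches than over all genes is therefore built into the list, and is no result about ki/ki cells. Promoter windows of 300 bases, from 250 before the start to 50 after it, came from RefSeq, build GRCm38.p6. Of the 25 measured stress response members with a window, 10 (40%) held a match, against 414 of 13325 measured genes (3.11%) and 1304 of 32851 windows in the table (3.97%). Of the 18 members that were above, 8 (44.4%) held it, and of the other 7 members 2 did (28.6%), so the difference within the list rests on few genes. Among the named genes, 3 of 12 above with a window held it (Chac1, Atf3 and Pck2) and 0 of 12 below. Chac1 and Atf3 are members of the list as well. A match is a description of the letters and not of binding. The windows of 6 of the genes described are printed 5′ to 3′ on the gene's strand, because they carry the stretch that these genes share, with the match in capitals.
Chac1: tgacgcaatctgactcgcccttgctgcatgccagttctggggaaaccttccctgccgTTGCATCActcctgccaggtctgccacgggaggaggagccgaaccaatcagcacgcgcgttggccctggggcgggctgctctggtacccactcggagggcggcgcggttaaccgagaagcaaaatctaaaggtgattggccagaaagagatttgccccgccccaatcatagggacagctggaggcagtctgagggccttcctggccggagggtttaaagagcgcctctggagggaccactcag
Atf3: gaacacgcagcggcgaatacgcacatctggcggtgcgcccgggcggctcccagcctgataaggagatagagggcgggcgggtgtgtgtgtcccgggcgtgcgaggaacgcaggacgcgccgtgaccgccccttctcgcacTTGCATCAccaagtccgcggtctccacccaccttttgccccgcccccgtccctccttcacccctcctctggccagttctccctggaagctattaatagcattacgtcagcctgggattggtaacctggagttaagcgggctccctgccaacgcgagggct
Asns: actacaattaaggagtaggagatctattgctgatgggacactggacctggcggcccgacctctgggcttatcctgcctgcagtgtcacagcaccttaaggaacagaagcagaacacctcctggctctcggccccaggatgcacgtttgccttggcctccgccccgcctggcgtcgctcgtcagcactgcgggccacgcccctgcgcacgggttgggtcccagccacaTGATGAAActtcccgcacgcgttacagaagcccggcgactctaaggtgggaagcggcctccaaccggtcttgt
Trib3: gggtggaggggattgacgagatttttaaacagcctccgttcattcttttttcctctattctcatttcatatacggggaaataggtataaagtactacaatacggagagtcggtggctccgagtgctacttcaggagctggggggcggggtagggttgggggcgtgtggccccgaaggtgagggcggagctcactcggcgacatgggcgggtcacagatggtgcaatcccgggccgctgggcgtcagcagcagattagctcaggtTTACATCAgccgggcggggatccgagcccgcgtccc
Nupr1: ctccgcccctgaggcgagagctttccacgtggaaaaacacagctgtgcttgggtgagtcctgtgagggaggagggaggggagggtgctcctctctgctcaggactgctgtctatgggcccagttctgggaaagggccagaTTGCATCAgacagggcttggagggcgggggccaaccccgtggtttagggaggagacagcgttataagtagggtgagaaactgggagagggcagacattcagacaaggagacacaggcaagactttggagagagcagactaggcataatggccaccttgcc
Pck2: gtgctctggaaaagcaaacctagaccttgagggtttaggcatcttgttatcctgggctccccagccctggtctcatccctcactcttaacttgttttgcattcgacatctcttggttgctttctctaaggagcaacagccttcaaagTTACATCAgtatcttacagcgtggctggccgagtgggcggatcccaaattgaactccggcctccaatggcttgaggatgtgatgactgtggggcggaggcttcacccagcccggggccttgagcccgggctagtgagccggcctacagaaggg
The match of Chac1 (chr2:119350992-119351291, plus strand) begins 193 bases before the start, and that of Pck2 (chr14:55540016-55540315, plus strand) 103 bases before it. Those of Atf3 (chr1:191183284-191183583) and Nupr1 (chr7:126625421-126625720) begin 110 bases before it, and that of Asns (chr6:7693160-7693459) 23 bases before it. In Trib3 (chr2:152344011-152344310) it begins 14 bases after the start. The last 4 windows are on the minus strand.

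Immediate early genes are transcribed within minutes of a growth or stress signal and need no new protein. Of 22 measured, 12 were above, 3 below and 6 split (54.5% above), with medians of 0.13 and 1.04. The early growth response factor Egr1 read 11.60 and 12.82 in ki/ki and 10.58 and 10.46 in wild type (difference 1.69, SE 0.37, limma adjusted p = 0.279). Egr2 read 6.66 and 8.07 against 5.71 and 5.59 (difference 1.72, SE 0.41, limma adjusted p = 0.318). Replicate 2 was higher than replicate 1 for both, as it was for Fos. The phosphatase gene Dusp1, which switches off MAP kinases, read 10.69 and 11.68 against 10.28 and 10.19. Members below were Jund (-0.59), Klf10 (-0.40) and Srf (-0.28). Feeder markers were higher in replicate 2, by a median of 1.18, and their part in these levels was not tested. In replicate 1 alone, 12 of the 22 exceeded both wild type arrays and 9 were lower than both, against 39% and 44.3% of all genes, and in replicate 2 alone the counts were 19 and 3, against 41.6% and 45.1%.

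Markers of the primed epiblast lay lower. Of 19 measured, 0 were above, 14 below and 3 split (73.7% below), with medians of -0.83 and -0.48. In replicate 1 alone 17 were lower than both wild type arrays, and in replicate 2 alone 16, against 44.3% and 45.1% of all genes. Pou3f1, also called Oct6, read 7.67 and 8.65 in ki/ki and 9.99 and 9.81 in wild type (difference -1.73, SE 0.31, limma adjusted p = 0.221). The zinc finger gene Zic2 read 6.38 and 5.65 against 7.51 and 7.46 (difference -1.48, SE 0.24, limma adjusted p = 0.194). Otx2, a homeobox factor of the epiblast and forebrain, read 5.27 and 7.58 against 8.28 and 8.0 (difference -1.71, SE 0.72, limma adjusted p = 0.560). Its replicate 2 lay close to wild type and its replicate 1 far lower. Neuroectoderm genes had 8 of 14 below and 0 above, with medians of -0.25 and -0.27.

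The naive and core pluripotency genes differed between the ki/ki arrays. Of 17 naive genes, 6 were above, 3 below and 5 split (35.3% above), with medians of 0.41 and 0.01. Taken singly, replicate 1 had 12 above both wild type arrays and 3 below, and replicate 2 had 8 and 8. Over all genes the shares were 39% above and 44.3% below in replicate 1, and 41.6% and 45.1% in replicate 2. Tet2, an enzyme that oxidises methylated cytosine, read 10.00 and 9.84 in ki/ki against 8.80 and 8.82 in wild type (difference 1.11, SE 0.16, limma adjusted p = 0.166), and its second probe set differed by 1.52. Klf4 read 11.58 and 10.69 against 10.57 and 10.44, and Nr0b1 and Klf5 differed by 0.49 and 0.43. Dppa3, or Stella, went the other way, with 9.87 and 10.04 against 10.99 and 10.83 (difference -0.95). Of 11 core factors, 3 were above, 1 below and 3 split, with medians of 0.10 and -0.03. Taken singly, replicate 1 had 8 above and 2 below, and replicate 2 had 3 and 5.

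Nodal is a TGF-beta family ligand that maintains the epiblast and induces its own inhibitors. Of 16 genes of the pathway 5 were above and 5 below, with medians of -0.09 and -0.01, so the list as a whole had no direction. Inhibitors of the ligand were among those below. Lefty1 read 9.13 and 10.20 in ki/ki and 11.62 and 11.40 in wild type (difference -1.85, SE 0.37, limma adjusted p = 0.256). Foxh1, the DNA-binding partner of the SMAD proteins downstream of Nodal, read 7.53 and 7.94 against 8.79 and 8.94 (difference -1.13, SE 0.22, limma adjusted p = 0.255). With Lefty2, described above, they had all ki/ki levels under all wild type levels, as the rule for naming genes requires. The receptor Acvr2b differed by -0.60, and the protease Furin, which matures the ligand, by 0.49.

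In the FGF and ERK pathway, 1 of 14 measured genes was above, 6 below and 6 split, with medians of -0.55 and 0.04. In replicate 1 alone 13 of 14 were lower than both wild type arrays, and in replicate 2 alone 6. The shares of all genes were 44.3% and 45.1%. Fgf4, the ligand that ES cells make themselves, was the gene above, with 11.92 and 10.71 in ki/ki against 10.17 and 10.01 in wild type (difference 1.23, its 3 other probe sets 0.95 to 1.29). The feedback phosphatase Dusp4 read 7.43 and 8.99 against 9.40 and 9.37, and the receptor Fgfr1 differed by -0.65. Hedgehog genes had 1 of 14 above (Gli2) and 2 below. The targets Gli1 and Ptch1, which report on the activity of this pathway, were those below. Gli1 read 7.15 and 7.16 against 7.95 and 7.92 (difference -0.78, SE 0.14, limma adjusted p = 0.211), and Ptch1 read 9.73 and 9.53 against 10.24 and 10.06 (difference -0.52). The counts above and below in this list, 7.14% and 14.3%, were under the shares of all genes, so they are no result about the pathway. Wnt genes had 2 of 15 above and 7 below, with medians of -0.21 and -0.05.

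Epithelial junction genes, 32 in number with tight junction and desmosome members, had 2 above, 19 below and 8 split (59.4% below), with medians of -0.57 and -0.22. In replicate 1 alone 25 were lower than both wild type arrays, and in replicate 2 alone 23, against 44.3% and 45.1% of all genes. The claudins, which form the seal of tight junctions, lay lower: Cldn4 read 8.58 and 9.01 in ki/ki against 9.79 and 9.66 in wild type (difference -0.93), and Cldn7 read 7.47 and 8.75 against 9.52 and 9.29 (difference -1.30). Cldn6 read 8.12 and 8.83 against 9.61 and 9.37. The tight junction proteins of cell corners, Marveld2 and Lsr, read 4.69 and 5.11 against 5.81 and 5.77, and 8.23 and 8.15 against 9.01 and 8.91. The other probe set of Lsr differed by 0.21. The members above were Tjp1 (0.31), a scaffold of tight junctions, and the protease inhibitor Spint2 (0.25).

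Trophectoderm is the outer epithelium of the blastocyst, from which placenta forms. Of 18 marker genes, 1 was above, 11 below and 2 split (61.1% below), with medians of -0.58 and -0.61. Tfap2c read 9.19 and 9.32 in ki/ki and 10.18 and 10.09 in wild type (difference -0.88, SE 0.20, limma adjusted p = 0.295), and its 2 other probe sets differed by -1.0 and -0.95. The T-box factor gene Eomes read 6.74 and 6.77 against 7.48 and 7.51. The imprinted factor gene Ascl2 read 7.21 and 6.60 against 7.85 and 7.83, with its other probe sets at -1.26 and -1.22. These 3 had nonoverlapping groups, as the rule for naming them requires, and for Tfap2c and Eomes the ki/ki arrays lay close together. The gene above was Gata3 (0.28), a factor of the lineage.

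**Figure D4:**
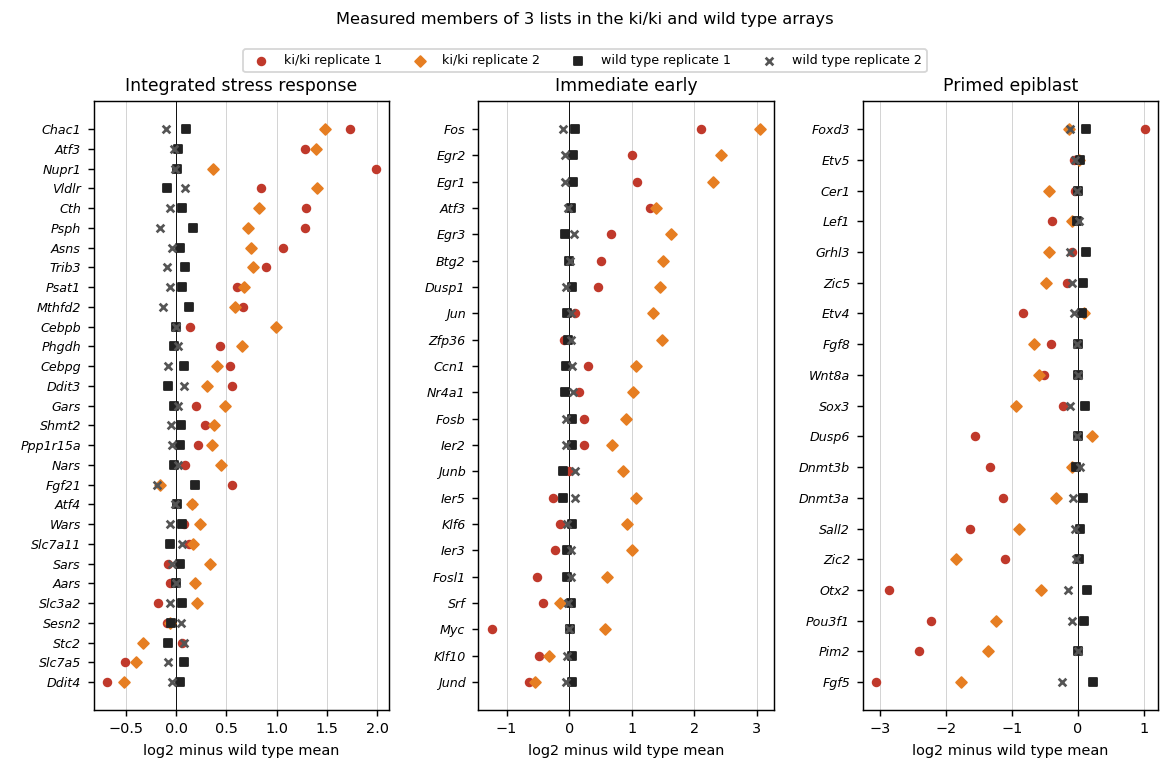
Log2 intensity minus the wild type mean (horizontal) for each measured member of the integrated stress response (29 genes), the immediate early genes (22) and the primed epiblast markers (19), with 1 symbol for each ki/ki and wild type array. Stress response members lie mostly above 0 (21 above wild type) and primed epiblast members mostly under 0 (14 below), while immediate early members have medians of 0.13 in replicate 1 and 1.04 in replicate 2.

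Interferon-induced genes had 3 of 22 above and 7 below (31.8%), with medians of -0.23 and -0.10. Oasl2 read 4.30 and 4.26 in ki/ki against 5.16 and 5.21 in wild type (difference -0.90, SE 0.14, limma adjusted p = 0.179). Its ki/ki levels were near the filter of 4. Bst2, a protein that tethers viruses, read 8.14 and 8.20 against 9.12 and 8.94. Genes of the LIF and STAT3 pathway had 7 of 18 above and 2 below, with medians of 0.09 and 0.43. The feedback inhibitor Socs2 was one of those below, with 9.22 and 10.57 against 11.47 and 11.37 (difference -1.52). Targets of p53 had 6 of 17 above, 3 below and 7 split. Pmaip1, or Noxa, a promoter of cell death, read 10.24 and 10.10 against 11.31 and 11.27 and was below. Glycolysis and hypoxia genes had 8 of 25 above and 5 below.

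Genes with the ki/ki arrays on opposite sides of wild type were the largest class, with 5904 members. Replicate 1 was the higher array in 2767 and replicate 2 in 3137, and in 25 both ki/ki arrays were at least 1 from the wild type mean. The 8 genes with the widest distance of each kind were read separately. Where replicate 1 was high, the arrays were 3.57 to 5.92 apart. Obox6, an oocyte homeobox gene, read 10.15 and 4.68 in ki/ki and 5.81 and 5.89 in wild type. Usp17la, of a family of deubiquitinases, read 9.98 and 4.06 against 5.10 and 5.07. Pramel6 and Pramel7, related genes of oocyte and early embryo, read 8.55 and 3.90 against 5.85 and 5.56, and 8.39 and 4.23 against 5.01 and 4.83. Rec114, a gene of meiotic recombination, read 9.41 and 5.83 against 7.35 and 7.19. In replicate 1 these exceeded wild type and in replicate 2 they lay under it, as the rule for choosing them requires. The remaining genes of this kind were Fmr1nb, Elobl and Pzp.

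Where replicate 2 was high, the arrays were 2.40 to 3.05 apart. Gna14, a G protein subunit, had the widest distance and read 4.26 and 7.31 in ki/ki against 6.01 and 6.21 in wild type. Actg2, smooth muscle actin, read 7.58 and 10.47 in ki/ki against 7.94 and 8.20 in wild type, and calponin, Cnn1, read 7.35 and 9.98 against 7.46 and 7.58. Ccdc80, a matrix protein, read 8.34 and 10.98 against 8.48 and 8.81. Bmp4, a growth factor of the early mesoderm, read 7.35 and 9.75 against 8.97 and 8.86. Uty, Gpr176 and Olr1 made up the rest. The list of actin and SRF genes had 3 of 18 above, 0 below and 12 split, with medians of -0.16 and 0.87. All 18 exceeded both wild type arrays in replicate 2, against 41.6% of all genes. YAP targets had medians of -0.14 and 0.96. Feeder markers, at -0.18 and 1.18, moved with these lists, and the part of feeder RNA in them was not tested.

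The chromosomes were compared because Cdh1 lies on chromosome 8. Of the 873 genes measured there, 91 (10.4%) were above and 292 (33.4%) below, with medians of -0.12 and -0.09. The share below on the other chromosomes ran from 13.3% to 25.1%. When chromosome 8 was divided by gene order into 10 equal segments, the share below ran from 24.1% to 48.3%, so every segment lay over the share of all genes, and the highest was segment 8, which holds Cdh1. Of the 30 measured genes nearest to Cdh1, 15 to each side, 1 was above and 10 were below (33.3%), with medians of -0.26 and -0.07. The gene above was Sntb2, a syntrophin, at 0.60 and 1.36 from the wild type mean. Of the 43 genes with a gap of at least 1 below, 10 lie on chromosome 8, Cdh1 itself among them. Psmb10, described above, is another and lies in segment 8, outside the 30 nearest genes. The 10 also include Mt1, a metallothionein, with 12.02 and 12.01 in ki/ki against 13.13 and 13.08 in wild type. In ki/+ Mt1 read 12.99 and 12.95, near wild type. Tox3, a nuclear HMG-box protein, read 5.04 and 4.68 in ki/ki against 6.48 and 6.20 in wild type, and 5.02 and 5.32 in ki/+, near ki/ki. The medians of chromosome 8 in ki/+ were -0.03 and -0.11. Apela, a peptide hormone of ES cells, differed by -1.78, and the actin-binding gene Cotl1 by -1.55.

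**Figure D5:**
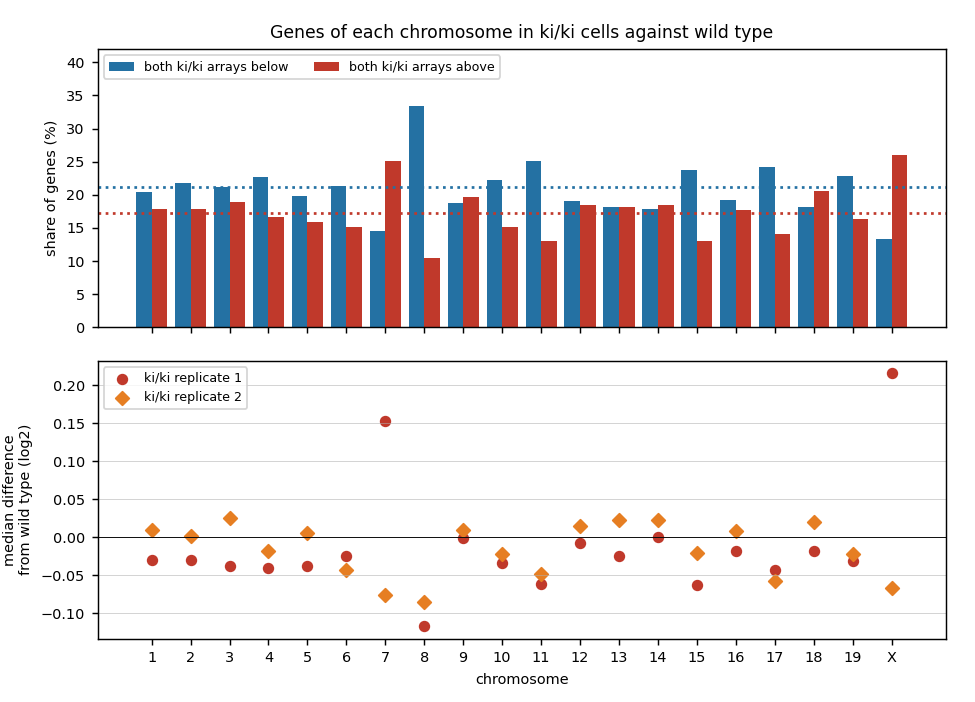
Upper panel, share of measured genes of each chromosome below (blue) and above (red) both wild type arrays, with dotted lines at the shares of all genes. Lower panel, the median log2 difference from the wild type mean in each ki/ki array. Chromosome 8 has the highest share below (33.4%), and chromosomes 7 and X have medians of 0.15 and 0.22 in replicate 1.

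Chromosomes 7 and X had the highest shares above, and chromosomes 9, 14 and 18 also had slightly more genes above than below. On chromosome 7, 25.1% of 1327 genes were above and 14.5% below, with medians of 0.15 and -0.08, and on X 26% of 543 were above and 13.3% below, with medians of 0.22 and -0.07. In replicate 2 the medians of both were under 0. Among genes with a gap of at least 1, X had 2 above and 6 below.

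The difference from ki/+ was examined to see whether the homozygous state stood apart. limma called 0 probe sets between ki/ki and ki/+, with a smallest adjusted p of 0.391. Both contrasts use the same ki/ki arrays. Feeder markers had medians of -1.61 and -0.68 from the wild type mean in ki/+, and -0.18 and 1.18 in ki/ki. The Y-linked genes differed between the ki/+ arrays too, with Eif2s3y at 9.49 and 4.60 and Uty at 7.44 and 4.13. The part of either in the contrast was not tested. For the 15 named genes above, the adjusted p of ki/ki against ki/+ ran from 0.429 to 0.995, and for those below from 0.391 to 0.922. List medians in ki/+, from the wild type mean, were 0.31 and 0.08 for the stress response and -0.21 and -0.43 for primed epiblast markers. They were 0.35 and 0.29 for naive genes and -0.17 and -0.08 for immediate early genes. Epithelial junction genes had -0.001 and -0.23, and trophectoderm markers -0.25 and -0.15. Of these lists, only the immediate early genes had medians opposite in sign to ki/ki. The ki/+ levels of single genes are set beside those already given, with the same wild type arrays behind both. Among the higher genes, Gli2 read 9.51 and 9.51 in ki/+, Fos 11.35 and 10.76, Sbno1 10.26 and 10.17, and Atf3 7.45 and 7.30. Gli2, Fos and Sbno1 in ki/+ were near or within their ki/ki levels, and Atf3 lay between ki/ki and wild type. Among the lower genes, Malat1 read 7.65 and 7.84 in ki/+, Hmgn5 8.94 and 9.15, Lefty2 8.45 and 8.47, and Psmb10 8.74 and 8.16. Malat1 and Hmgn5 were near or under their ki/ki levels, while Lefty2 and Psmb10 were nearer to wild type.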

How the data were processed

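The authors deposited intensities on a linear scale for 45101 probe sets, which the submitters' processing notes and the series' design text credit to GCRMA with quantile normalization, and log2 was taken of these deposited intensities here. Software versions and a genome build were not given in the sources consulted. The array medians ran from 49.97 to 53.3. The number of arrays, not a read depth, limits the precision.

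Of the 45101 probe sets, 64 controls were left out. Of the 37950 kept, 30722 had a single symbol, 803 several and 6425 none in the platform's gene table. Symbols were brought up to date through RefSeq, GRCm38.p6, which also gave chromosomes and gene order. The test was limma's (version 3.58.1, under R 4.3.3), in 1 fit to all 6 arrays with genotype as the only term, adjusted by Benjamini and Hochberg over the 37950. The fit had 3 residual degrees of freedom, with 3.57 from the prior. The script was tested on simulated data drawn with the same spread in every genotype. The ki/ki and wild type arrays differed in spread, so that test does not bear on the absence of calls here. The labels give independent experiments, but not whether these were separate clones, so p-values measure the spread between these arrays.

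Genes were named by rule: the 15 widest gaps in each direction, passing over clone names, the 8 genes most split in each direction, and from each list at most 6 non-overlapping members by gap. Outside this rule, chosen after their values were seen, are Atf4, Dazl, Dusp1, Gata3, Klf10, Nupr1, Otx2, Phgdh, Psat1, Psph, Sesn2, Spint2, Srf, Tjp1, the marker genes that check the arrays and, on chromosome 8, Mt1, Apela, Cotl1 and Tox3. The members, lists and the motif were chosen with earlier results of these data known. Replicate numbers were not used to pair the arrays in the main fit. Correlations of deviations between same-numbered arrays were 0.057 for ki/ki with wild type, -0.039 for ki/ki with ki/+ and 0.144 for ki/+ with wild type. The ki/ki arrays diverge widely from each other, so low values cannot decide whether same-numbered arrays shared an experiment. Alternatives were other filters, a further quantile normalization, a trended and robust prior, a fit to the 4 arrays, the replicate number as a block and leaving out each array. A feeder covariate, array weights and counts by gene were added after seeing the data.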

Additional observations from a re-analysis of the deposited data

Results flagged for a closer look

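The control probe sets for 18S ribosomal RNA, which are outside the comparison, averaged 4.07 higher (log2) in the ki/ki arrays than in the wild type arrays. They are flagged because a signal in probe sets that the comparison does not use lay above its level in the wild type controls. The ki/ki arrays read 11.36 and 11.12, the ki/+ arrays 11.57 and 11.54, and the wild type arrays 7.22 and 7.12. No gene described above is read from these probe sets. Whether they mark a difference in RNA or labelling was not tested, and such a difference cannot be told apart from genotype here.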

How the results depend on the processing

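The count of probe sets past an adjusted p of 0.05 was 0 in limma under every alternative but 3. It was 1796 without ki/ki replicate 1, 1046 without ki/ki replicate 2, and 20 with each array's feeder median added as a covariate (11 higher, 9 lower), which left 2 residual degrees of freedom and was chosen after seeing the data. Leaving out a wild type array gave 0, with 1055 and 1233 at an unadjusted p under 0.05. The replicate number as a block gave 0 calls, with 3357 at an unadjusted p under 0.05, and it changed no call. With array weights, also chosen after seeing the data, 0 passed and 2737 had an unadjusted p under 0.05. Leaving out an array could not reverse a named gene's sign, because these genes were chosen with both ki/ki arrays beyond both wild type arrays. The filters, the prior, the block, the array weights and the fit to the compared arrays alone left their differences unchanged. In principle only the further quantile normalization and the feeder covariate could change a sign. The deposited values were already quantile normalized and these genes had wide gaps, so the normalization had little room to do so. Under both, the signs of all 30 named genes held. With the feeder covariate 5 of them passed, without ki/ki replicate 1 21 and without replicate 2 20. The difference of Cdh2 ran from -0.48 to 0.75 as arrays were left out, the lowest without ki/ki replicate 2, and was -0.37 with the feeder covariate. Ankrd37 and Suz12 differed by 0.040 and -0.011 with it. The causes were not tested.

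Counts of probe sets whose groups do not overlap fell to 3894 above and 4954 below with a filter at log2 6, which tests fewer probe sets. Leaving out an array asks less of the order of the arrays. It gave 9523 to 15007 probe sets above and 11242 to 16945 below, and 63 to 736 above and 81 to 483 below with a gap of at least 1. By gene the ranges were 4000 to 6947 above and 4619 to 7518 below, and 24 to 350 and 44 to 255 with the gap. The other counts stayed within 1.5 times under the filters and the quantile normalization.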

Other observations

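Germline genes had 5 of 16 above, 2 below and 8 split, with medians of 0.95 in ki/ki replicate 1 and -0.20 in replicate 2. In replicate 1 alone 13 of the 16 exceeded both wild type arrays, and in replicate 2 alone 5, against 39% and 41.6% of all genes. Mael, a gene of the piRNA pathway that silences transposons, read 8.23 and 6.23 in ki/ki against 5.33 and 5.27 in wild type (difference 1.93). Dazl, an RNA-binding protein of germ cells, read 9.03 and 5.5 against 5.92 and 5.93, so only replicate 1 was higher. Tdrd12, another piRNA gene, read 10.50 and 9.90 against 9.41 and 9.39, with both ki/ki arrays above. Of 5 measured genes of the 2-cell-like state, 1 was above, 0 below and 4 split.

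Polycomb genes had 6 of 16 above and 3 below. Bmi1, a subunit of the repressive complex PRC1, read 8.36 and 8.71 in ki/ki against 7.34 and 7.58 in wild type (difference 1.08), while its relative Pcgf2 differed by -0.78. Imprinted genes had 3 of 21 above and 6 below, with medians of -0.24 and 0.12. Grb10, an imprinted adaptor of growth factor receptors, differed by 1.01. Oxidative phosphorylation genes had 2 of 17 above and 3 below, with medians of 0.00 and -0.56, so replicate 2 was the lower array. Heat shock genes had 5 of 14 above and 1 below. Of 11 DNA methylation genes, 4 were above and 5 below.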
